A study of Mus musculus with 8 samples.

Results

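L2, CR1 and MIR are old families of interspersed repeats, and their copies were taken here as every repeat row of the small RNA count table that the table files under the LINE families L2 or CR1 or the SINE family MIR. A row is 1 repeat copy in 1 strand class, sense or antisense to the repeat. There were 24489 such rows, 9790 of L2, 1406 of CR1 and 13293 of MIR, out of 723115 repeat rows and 1010917 rows in all. Counts were summed by subfamily and strand class, and the 111 rows with 100 or more counts over the 8 libraries were also described singly.

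The libraries hold small RNA of bulk sperm from C57BL/6J mice, 4 from animals labelled Control-Cessation and 4 from animals labelled EtOH-Cessation. The series title refers to the time after alcohol had been withdrawn, and the labels give no age, dose or duration. The label Control-Cessation does not state that the control animals had received alcohol. The labels call all 8 samples mature sperm, whereas the design text names the caput, the first stretch of the epididymis. Whether the 8 libraries stand for 8 animals is not stated, and p-values here cover only the variation among these libraries, which may be technical.

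L2 and CR1 are LINEs, elements that encoded their own reverse transcriptase, and MIR is a SINE, a short element that depended on the machinery of L2. All 3 stopped moving early in mammalian evolution, so their copies are old, diverged and shared between distant mammals. Some L2 and MIR copies serve as enhancers or lie inside transcripts, and a few L2 copies arranged as inverted repeats gave rise to microRNA hairpins. In the male germ line, transcripts of repeats and of long genomic clusters are cut into piRNAs, small RNAs that guide PIWI proteins.

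A pair of microRNAs whose hairpins are known, as background, to derive from L2 is printed here because their counts are reported and their 5p arms share a seed. The sequences are the mature forms of RefSeq (GRCm38.p6), 5′ to 3′, with the seed, bases 2 to 8, in capitals.
miR-28a-5p: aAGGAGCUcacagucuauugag
miR-708-5p: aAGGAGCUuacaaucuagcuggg
The seed AGGAGCU is the same in both, which says nothing by itself of their origin. The count table names repeat copies by number and gives no sequence or position for them.

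The 8 libraries held 3116421 to 6805989 counts. Of these, 0.427% to 1.03% fell on L2, CR1 and MIR copies, with 0.688% ± 0.127 in controls and 0.691% ± 0.285 in EtOH libraries (SD, n = 4 each). The highest and the lowest library were both EtOH libraries, replicates 3 and 2. EtOH replicate 2 also stood apart in exon fragments, at 30.5% of its counts. All 10 sperm and spermatid transcripts checked had counts, and their summed level was 423 to 542 CPM (counts in every 1000000 counts of the library) in controls and 285 to 398 in EtOH libraries. Epididymal epithelium transcripts, with 11 of 12 detected and Spint4 at 0, summed to 359 to 499 CPM in controls and 2563, 17661, 728 and 1290 CPM in EtOH replicates 1 to 4. Leukocyte transcripts were at 1.84 to 5.46 CPM in controls and 1.62 to 3.53 in EtOH libraries, and red blood cell transcripts at 11.0 to 24.0 and 1.03 to 14.2. The part of these transcripts in the repeat values was not tested. In bulk RNA, fewer cells of a type and less RNA per cell cannot be told apart.

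The counts of the old repeats sat on very few copies. Of the 24489 rows, 16638 (67.9%) had a single count over the 8 libraries and 24120 had fewer than 10. The 111 rows with 100 or more counts were 0.453% of the rows and held 246373 of 288035 counts (85.5%). Among the 17 repeat families with 10000 or more counts, MIR ranked 4 by this share (86.4%), L2 ranked 5 (85.1%) and CR1 ranked 9 (78.2%). The younger L1 LINEs had 68.1%, and the mouse SINE families B2 and Alu had 41.5% and 41.4%, the last of the 17. Older and younger families were mixed in this order. The endogenous retrovirus family ERV1 ranked 3 at 89.2%, above MIR and L2, and of the old DNA transposon families hAT-Charlie had 81.6% and TcMar-Tigger 60.9%. No test was made across families.

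The strand classes differed in how far a single copy carried the sum. In L2 antisense, L2c_copy3219 held 24.7% of 59200 counts, and in L2 sense, L2c_copy5919 held 18.8% of 55968. In MIR antisense, MIRc_copy17971 held 29.3% of 95095 counts, and in MIR sense, MIRb_copy38899 held 11.0% of 66238. CR1 antisense was close to the value of 1 copy, CR1_Mam_copy94, with 71.3% of 9514 counts. CR1 sense was the exception to the pattern, with only 2020 counts, of which 35.0% lay in its 2 rows of 100 or more counts. Copy lengths are not in the table, so counts of different copies are not levels per length. Reads that match several similar copies leave the value of any single copy uncertain.

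**Figure D1:**
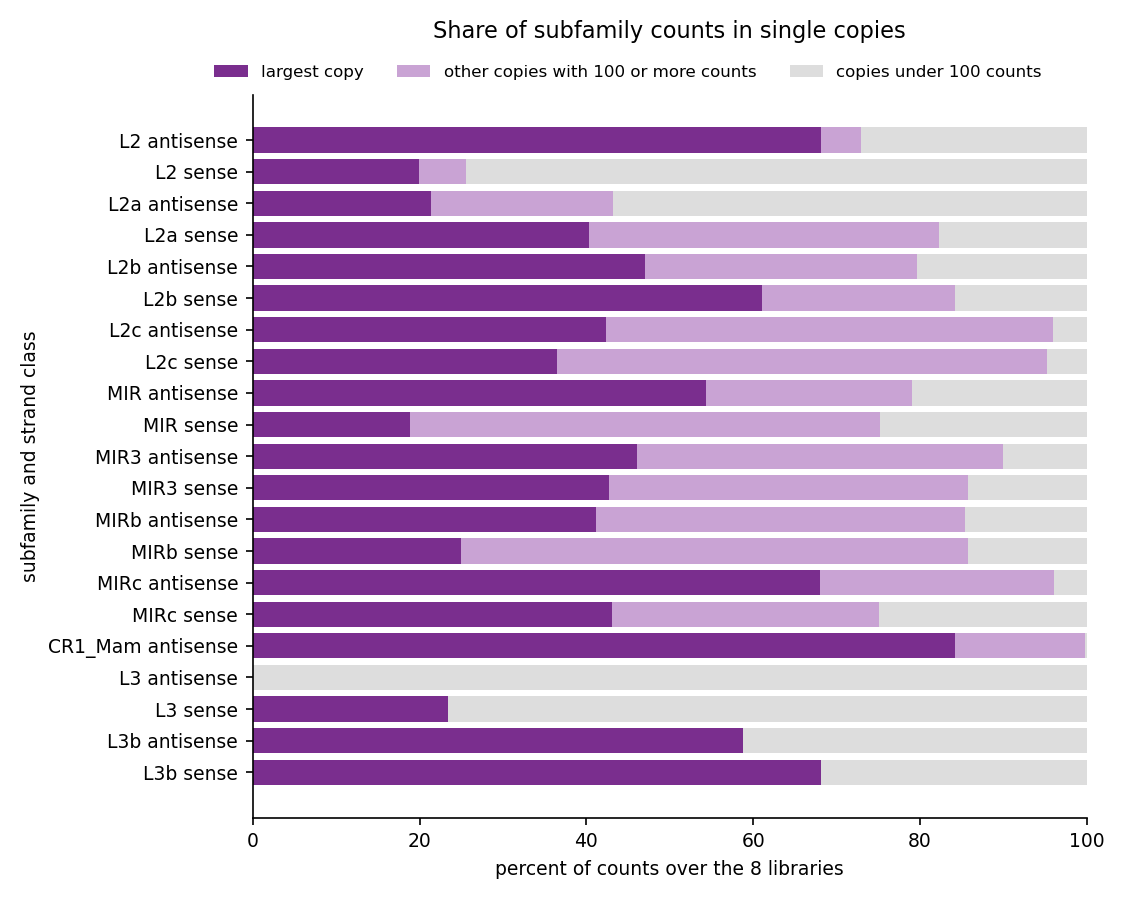
Share of each subfamily's counts, in percent, held by its largest copy, by other copies of 100 or more counts and by the remaining copies, as stacked bars by strand class over the 8 libraries pooled; a largest copy under 100 counts is not set apart. The antisense class of CR1_Mam stands out, with 84.2% of its counts on CR1_Mam_copy94.

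By subfamily, the largest copy held 84.2% of CR1_Mam antisense (CR1_Mam_copy94), 68.1% of L2 antisense in the narrow sense of the subfamily named L2 (L2_copy13488), 68.0% of MIRc antisense (MIRc_copy17971) and 54.4% of MIR antisense, again the subfamily (MIR_copy28396). The copies nearest to the limit of 100 counts were MIR3_copy8643 antisense at 109, L2a_copy13974 sense at 112 and L2b_copy5549 antisense at 113 just inside it. X6A_LINE_copy18 sense at 97, L2a_copy11690 sense at 94 and L2c_copy4573 sense at 91 lay just outside.

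Copies with many counts often carried adjoining numbers. Of the 110 distinct copies behind the 111 rows, 51 (46.4%) had another such copy of the same subfamily at the next or the previous number. Among the 23224 other listed copies, 45 (0.194%) had such a neighbour. The 51 copies formed 21 runs, 15 of 2 copies and 6 of 3 or more, and 54.6% of the counts of the 111 rows lay in runs. The longest run had 5 copies, MIR copies 11970 to 11974. In 13 of the 21 runs the copies fell in both strand classes, that is, 1 copy was counted as sense and a neighbour as antisense. The largest run, L2c copies 3219 to 3221, held 47.8 to 58.1 of every 1000 old repeat counts in each of the 8 libraries. The table does not say how copies are numbered, and whether adjoining numbers lie side by side in the genome was not tested.

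The comparison of the EtOH with the control libraries asks whether the repeat small RNAs differed between the groups after alcohol was withdrawn. No library used here is labelled as taken during exposure. None of the 6 family sums changed by the edgeR quasi-likelihood test at a Benjamini-Hochberg threshold of 0.05, while 13.1% of the 8847 features in the same fit passed. The groups overlapped in all 6 sums, whereas they did not in 20.2% of those features. The number of features passing depended on the setting, from 1156 in this fit to 0 with scaling to piRNA clusters and 6, 6, 7 and 14 without control replicate 1, 2, 3 or 4, so the share holds for this fit alone. CPM values of single copies and of subfamily and family sums use library sizes with TMM factors (a trimmed mean of log ratios) from their own fit.

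L2 antisense stood at 1601, 1056, 1310 and 1928 CPM in control replicates 1 to 4 and at 1706, 703, 2329 and 973 CPM in EtOH replicates 1 to 4. L2 sense stood at 1619, 1046, 1198 and 1756 CPM in controls and at 1582, 677, 2250 and 865 CPM in EtOH libraries. In both strand classes EtOH replicate 3 was above every control and EtOH replicates 2 and 4 were below every control. The means were 1474 ± 376 against 1428 ± 735 CPM for L2 antisense (SD, n = 4 each; log2 fold change of EtOH over control -0.05, SE 0.44, edgeR adjusted p = 0.975). For L2 sense they were 1405 ± 337 against 1343 ± 719 CPM (log2 fold change -0.06, SE 0.44, edgeR adjusted p = 0.958).

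MIR antisense stood at 2690, 1741, 2174 and 3085 CPM in controls and at 2582, 1083, 3816 and 1540 CPM in EtOH libraries. MIR sense stood at 1835, 1219, 1549 and 2108 CPM in controls and at 1879, 815, 2564 and 1063 CPM in EtOH libraries. The highest and lowest libraries were those seen in L2, with EtOH replicate 3 highest and EtOH replicate 2 lowest. The means were 2422 ± 587 against 2255 ± 1215 CPM for MIR antisense (SD, n = 4 each; log2 fold change -0.10, SE 0.44, edgeR adjusted p = 0.922). For MIR sense they were 1678 ± 382 against 1580 ± 798 CPM (log2 fold change -0.09, SE 0.43, edgeR adjusted p = 0.939).

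CR1 antisense stood at 279, 168, 249 and 318 CPM in controls and at 253, 99.6, 371 and 144 CPM in EtOH libraries. CR1 sense stood at 64.9, 40.7, 54.2 and 63.9 CPM in controls and at 54.8, 26.1, 63.3 and 36.1 CPM in EtOH libraries. In the sense class no EtOH library passed the highest control. The means were 254 ± 63.8 against 217 ± 121 CPM for CR1 antisense (SD, n = 4 each; log2 fold change -0.22, SE 0.45, edgeR adjusted p = 0.800). For CR1 sense they were 55.9 ± 11.3 against 45.1 ± 17.0 CPM (log2 fold change -0.31, SE 0.40, edgeR adjusted p = 0.658). All 6 fitted values were below 0, but with library size alone L2 antisense, L2 sense and MIR sense were at 0.05, 0.03 and 0.01. With an SE near 0.44, differences of this size were not detectable in 4 libraries against 4.

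**Figure D2:**
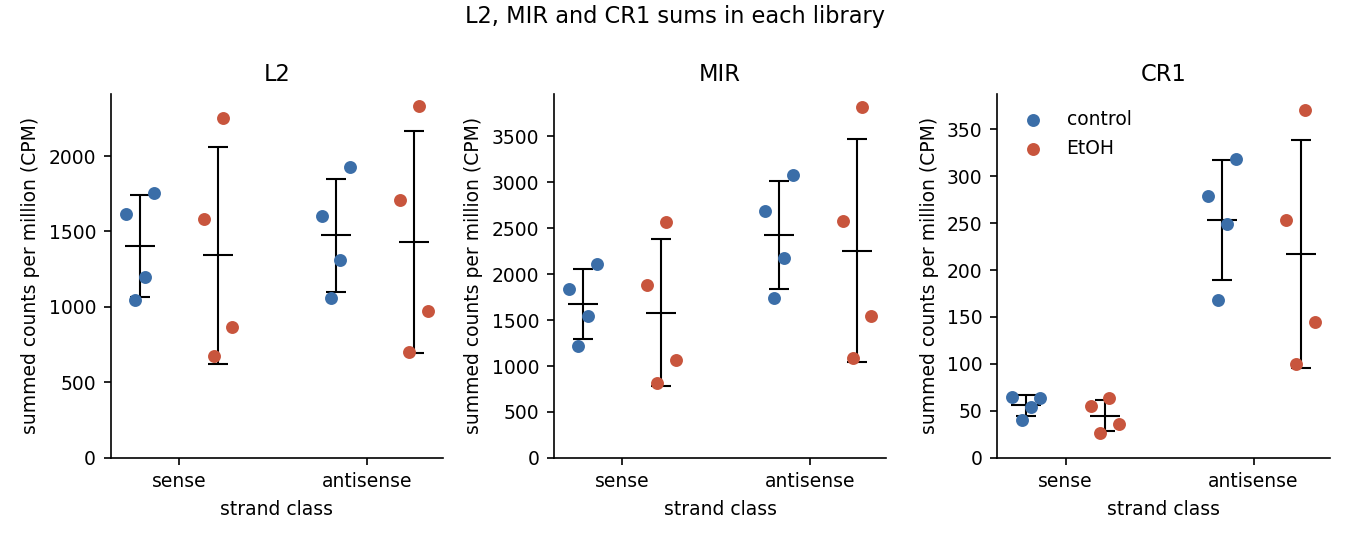
CPM of the L2, CR1 and MIR sums by strand class, 1 point per library and a bar at each group mean with its SD. The EtOH points spread more widely than the control points in every panel, from 703 to 2329 CPM for L2 antisense against 1056 to 1928 CPM in controls.

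Without the rows of 100 or more counts, the rest of each family was fitted lower in EtOH libraries by more than the whole family was. Again no sum passed the test. In this fit such rows were left out of every repeat family, and a copy's row in the other strand class stayed if it was under 100 counts. Whether the low rows of other repeat families were fitted likewise was not compared. The log2 fold changes were -0.32 for L2 antisense, -0.56 for L2 sense, -0.37 for MIR antisense, -0.44 for MIR sense, -0.62 for CR1 antisense and -0.49 for CR1 sense (edgeR adjusted p = 0.589, 0.338, 0.520, 0.433, 0.304 and 0.384). The difference between these values and those of the whole families was not tested.

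Of the 43 subfamily sums by strand class, 23 passed the filter on low counts, and none of these changed, while 9.92% of the 9822 features in that fit passed. That share too depended on the setting. There were 974 features passing in this fit, against 6 with median-of-ratios factors, 0 with scaling to piRNA clusters, 4 without EtOH replicate 4 and 7, 7, 6 and 13 without control replicate 1, 2, 3 or 4. The 20 sums that were not tested had 1 to 68 counts each. Among the 23, 1 was fitted above 0 and 22 below, with a median log2 fold change of -0.14 against -0.04 over all 9822 features. With library size alone the split was 10 above and 13 below, the median of the 23 was -0.01 and that of all features 0.10. The split turned to 17 above and 7 below without EtOH replicate 2, to 13 and 11 without EtOH replicate 4, and to 16 and 8 with the EtOH libraries whose identifiers start with EM alone. Identifiers start with EM in EtOH replicates 3 and 4, with M in EtOH replicates 1 and 2 and with CM in all controls. A fit of either form alone thus sets 2 EtOH libraries against 4 controls. The values of the 2 groups overlapped in all 23, while they did not overlap in 18.4% of all features.

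In the L2 family the largest subfamily was L2c, with 836 ± 216 CPM in controls and 821 ± 413 in EtOH libraries for its antisense class and 705 ± 130 and 682 ± 363 for its sense class (SD, n = 4 each). L2a leaned to the sense class, with 399 ± 71.6 and 362 ± 164 CPM sense and 169 ± 13.2 and 141 ± 43.6 CPM antisense. L2b was even between the classes, with 211 ± 34.7 and 200 ± 93.4 CPM antisense and 205 ± 42.1 and 195 ± 83.9 CPM sense. The subfamily named L2 leaned to the antisense class, with 249 ± 42.1 and 229 ± 98.4 CPM against 88.2 ± 12.6 and 68.1 ± 25.9 CPM sense.

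Among MIR subfamilies, MIRc antisense had the highest sum of any of the 43, at 1045 ± 218 CPM in controls and 936 ± 473 in EtOH libraries, while MIRc sense had 217 ± 25.5 and 197 ± 90.6 CPM (SD, n = 4 each). MIRb was high in both classes, at 734 ± 114 and 685 ± 319 CPM sense and 652 ± 108 and 585 ± 269 CPM antisense. The MIR subfamily had 387 ± 45.6 and 371 ± 163 CPM antisense and 416 ± 68.5 and 381 ± 156 CPM sense, and MIR3 had 326 ± 71.4 and 303 ± 161 CPM antisense and 304 ± 78.5 and 277 ± 127 CPM sense. In each of these subfamily sums the SD of the EtOH group was larger than that of the controls.

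Of the CR1 subfamilies, CR1_Mam antisense had 210 ± 52.4 CPM in controls and 180 ± 96.5 in EtOH libraries, and L3 sense had 30.5 ± 3.98 and 22.2 ± 5.55 (SD, n = 4 each). The sum nearest to the threshold was L3 antisense, with 29.7, 31.8, 22.3 and 19.8 CPM in controls and 20.7, 10.3, 15 and 13.1 CPM in EtOH libraries. EtOH replicate 1 was above control replicate 4, and the other 3 EtOH libraries were below every control. Its log2 fold change of -0.81, the lowest of the 23, had an edgeR adjusted p of 0.154 and an unadjusted p of 0.042, the sole unadjusted p below 0.05 among the 23. L3 antisense was named after its values were seen, and DESeq2 did call it (adjusted p = 0.0457). DESeq2 called 1920 of 9822 features in that fit, so this call alone does not set L3 antisense apart.

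Among single copies, 1 passed the test. All 111 rows of 100 or more counts passed the filter on low counts, as did 3 rows with fewer counts. Of the 114, 1 was higher in EtOH libraries and 0 were lower, that is 0.877% against 0.186% of all 10234 features in the fit (0.0489% higher and 0.137% lower by the same edgeR test and threshold). The 0.877% is 1 row, which passed the filter only through its EtOH counts, so it says nothing of the old repeats as a set. At an unadjusted p below 0.05 there were 1 higher and 2 lower. The median log2 fold change of the 114 was -0.17, with quartiles of -0.27 and -0.04, against a median of -0.09 over all features. It was 0.05 with library size alone, where the median of all features was 0.14. In 110 of the 111 rows the groups overlapped, while they did not overlap in 15.1% of all features.

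That copy was L2b_copy13425 in the sense class. Nearly all its counts are in EtOH libraries, so it reached 100 counts and passed the filter only through the group where it is high, and its test does not stand apart from that selection. It had 0, 1, 0 and 3 counts in control replicates 1 to 4 and 24, 38, 26 and 63 counts in EtOH replicates 1 to 4. Every EtOH library was above every control, and EtOH replicates 2 and 4 were the highest, at 10.3 and 10.9 CPM against 3.37 and 3.54 CPM in replicates 1 and 3. The summed counts gave a ratio of EtOH to control of 25.8 on scaled library sizes. Its exact 95% limits, for counting error alone, were 9.87 and 95.9. The group means were 0.234 ± 0.313 and 7.04 ± 4.15 CPM (SD, n = 4 each; log2 fold change 4.70, SE 0.77, edgeR adjusted p = 0.0341). L2b_copy13425 had no neighbour by number among the copies of 100 or more counts. The copy no longer passed when control replicate 1, 2 or 3 or EtOH replicate 4 was left out (edgeR adjusted p = 0.135, 0.0952, 0.112 and 0.0814), with the log2 fold change between 4.29 and 4.66. Nor did it pass with median-of-ratios factors, with a mean count filter and with scaling to piRNA clusters (log2 fold change 4.80, 4.54 and 5.36, edgeR adjusted p = 0.0554, 0.0645 and 0.288). The epididymal transcripts were also higher in all 4 EtOH libraries, highest in replicate 2, and their part in this copy's counts was not tested.

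Next in order of p came a pair of MIRb copies with fewer counts in EtOH libraries, neither past the threshold in the edgeR fit of all 8 libraries. MIRb_copy7718 sense had 10, 22, 39 and 29 counts in controls and 3, 8, 23 and 9 in EtOH libraries, or 6.17 ± 3.06 against 1.82 ± 1.14 CPM (SD, n = 4 each; log2 fold change -1.75, SE 0.56, edgeR adjusted p = 0.0741). It overlapped through control replicate 1, at 2.37 CPM, and EtOH replicate 3, at 3.13 CPM. MIRb_copy32772 antisense had 23, 6, 49 and 50 counts in controls and 19, 4, 34 and 5 in EtOH libraries, or 7.63 ± 4.99 against 2.31 ± 1.74 CPM (log2 fold change -1.67, SE 0.63, edgeR adjusted p = 0.115). Without EtOH replicate 3 both passed, at edgeR adjusted p = 0.0180 and 0.0252. MIRb_copy7718 also passed with DESeq2 (adjusted p = 0.0297), with limma voom (0.0337) and with the EtOH libraries whose identifiers start with M alone (edgeR, 0.0272). In these settings far more of the whole table was called than the 19 of 10234 features of the main fit. Called were 2332 of 11584 features without EtOH replicate 3 and 2572 of 13606 with M alone. DESeq2 called 1747 of 10234 and voom 846 of 10234.

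MIRb_copy32772 was the only copy with 100 or more counts in both strand classes. Its sense row had 607, 409, 605 and 848 counts in controls and 1142, 238, 1497 and 546 in EtOH libraries, or 149 ± 30.7 against 131 ± 62.8 CPM (SD, n = 4 each; log2 fold change -0.19, edgeR adjusted p = 0.841). The groups overlapped in both rows, and the difference between its strand classes was not tested.

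The other copies with the lowest p had small counts and adjusted p far from the threshold. Fitted lower were MIR3_copy8643 antisense (log2 fold change -0.74, edgeR adjusted p = 0.317) and L2a_copy13974 sense (-0.68, 0.353). MIR3_copy8643 stood at 4.27, 1.38, 2.78 and 5.30 CPM in controls and at 1.54, 1.09, 2.99 and 2.43 CPM in EtOH libraries. L2a_copy13974 stood at 3.08, 3.85, 2.27 and 4.85 CPM in controls and at 1.12, 1.09, 3.54 and 2.77 CPM in EtOH libraries. EtOH replicate 2 was below every control in both, and EtOH replicate 1 in L2a_copy13974 alone.

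Fitted higher were MIR3_copy7149 sense (log2 fold change 0.72, edgeR adjusted p = 0.422), MIRb_copy13605 sense (0.41, 0.668) and MIRb_copy33658 sense (0.26, 0.787). MIR3_copy7149 stood at 2.37, 2.20, 4.80 and 2.43 CPM in controls and at 4.35, 1.36, 10.1 and 3.29 CPM in EtOH libraries. MIRb_copy13605 stood at 2.13, 2.20, 4.04 and 2.21 CPM in controls and at 2.94, 2.99, 6.67 and 1.21 CPM in EtOH libraries. MIRb_copy33658 stood at 5.93, 5.23, 5.05 and 7.72 CPM in controls and at 7.99, 2.72, 11.6 and 6.07 CPM in EtOH libraries. All 3 had their highest value in EtOH replicate 3, the library that was highest in the family sums.

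**Figure D3:**
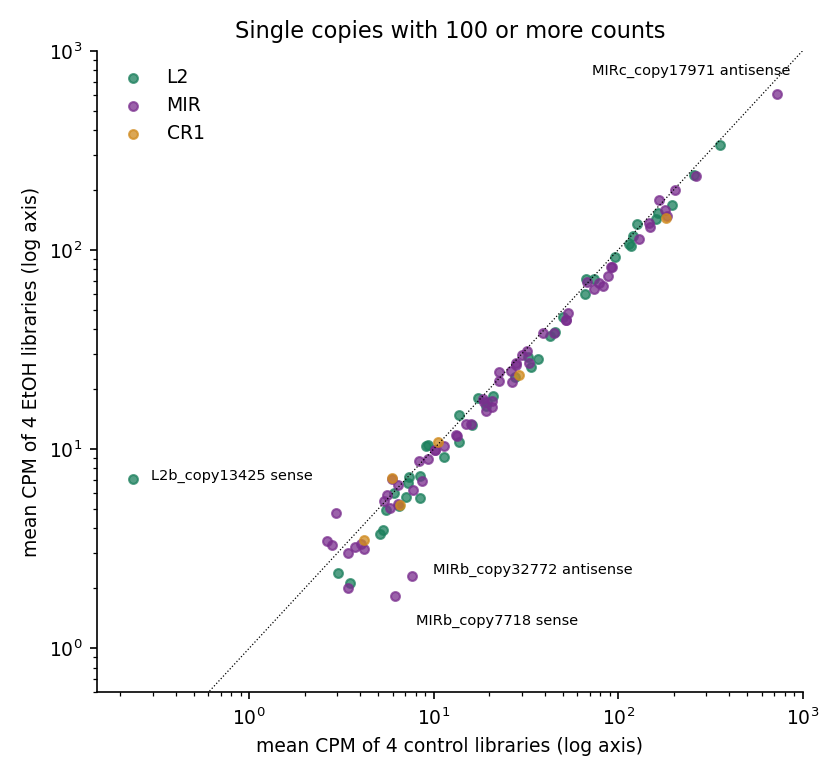
Mean CPM of the 4 EtOH libraries against mean CPM of the 4 control libraries, both on log axes, for the 111 rows of 100 or more counts, coloured by family, with a dotted line where the means are equal. Most points lie close to the line, and L2b_copy13425 sense lies far above it at 0.234 and 7.04 CPM.

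The copies with the most counts moved with the family sums, of which they are themselves large parts. MIRc_copy17971 held 29.3% of MIR antisense and L2c_copy3219 held 24.7% of L2 antisense. Their library values were not compared with sums that leave them out. MIRc_copy17971 antisense, the largest, stood at 792, 567, 679 and 861 CPM in controls and at 703, 292, 969 and 466 CPM in EtOH libraries. L2c_copy3219 antisense stood at 366, 266, 340 and 449 CPM in controls and at 419, 181, 512 and 232 CPM in EtOH libraries. Both were highest in EtOH replicate 3 and lowest in EtOH replicate 2. MIRc_copy17971 had 725 ± 129 against 607 ± 294 CPM (SD, n = 4 each; log2 fold change -0.25, edgeR adjusted p = 0.762).

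L2c_copy5919, the largest L2 copy of the sense class, stood at 317, 193, 224 and 303 CPM in controls and at 286, 125, 391 and 146 CPM in EtOH libraries. MIRb_copy38899, the largest MIR copy of the sense class, stood at 200, 127, 152 and 186 CPM in controls and at 218, 117, 264 and 111 CPM in EtOH libraries. CR1_Mam_copy94 antisense stood at 193, 125, 200 and 206 CPM in controls and at 180, 71.9, 227 and 100 CPM in EtOH libraries. EtOH replicate 3 was highest in all 3, and EtOH replicates 2 and 4 were below every control, with replicate 4 the lowest in MIRb_copy38899. CR1_Mam_copy220 antisense, the other large CR1 copy, had 28.9 ± 8.08 against 23.6 ± 10.6 CPM (SD, n = 4 each).

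The other large L2 copies of the antisense class were L2_copy13488, with 165 ± 36.1 against 154 ± 71.9 CPM, L2c_copy9509, with 117 ± 24.5 against 105 ± 55.9 CPM, and L2b_copy9888, with 96.7 ± 13.7 against 92.0 ± 46.1 CPM (SD, n = 4 each). Those of the sense class were L2c_copy9510, with 197 ± 26.0 against 168 ± 90.3 CPM, L2a_copy19266, with 160 ± 31.5 against 143 ± 61.1 CPM, and L2c_copy9747, with 127 ± 28.3 against 134 ± 66.9 CPM. L2c_copy9509 and L2c_copy9510 are neighbours by number and were counted in opposite strand classes.

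The other large MIR copies of the antisense class were MIRb_copy38457, with 266 ± 46.5 against 234 ± 106 CPM, MIR_copy28396, with 203 ± 26.0 against 200 ± 85.0 CPM, and MIRb_copy20472, with 179 ± 32.5 against 159 ± 70.1 CPM (SD, n = 4 each). MIRc_copy8484 sense had 93.2 ± 14.7 against 81.7 ± 37.4 CPM. In every one of these large copies the groups overlapped.

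Set against the sum of old repeat counts in each library, the shares of most large copies varied less than 2-fold between libraries. MIRc_copy17971 held 80.6 to 104 of every 1000 old repeat counts. Controls ran from 93.6 to 104 and EtOH libraries from 80.6, in replicate 2, to 102. Over the 50 copies of 1000 or more counts, the ratio of the highest to the lowest library share had a median of 1.49, and 48 were under 2. The range ran from 1.16 (L2c_copy8873 antisense) to 2.75 (MIR_copy35542 antisense), and the other copy above 2 was L2c_copy6495 antisense at 2.30. Over all 111 rows the median ratio was 1.74 and 81 were under 2. L2b_copy13425 was the only row with a library at 0, and the highest ratio among the others was 25.2, in MIRb_copy7718.

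The libraries' differences in old repeat counts went with their differences in piRNA cluster counts. L2, CR1 and MIR together had 7922, 5229, 6531 and 7837 CPM of the library total in controls and 8269, 4266, 10259 and 4853 CPM in EtOH libraries, a range of 2.40-fold. Per 100 counts of piRNA clusters they had 3.36, 3.57, 3.21 and 3.12 counts in controls and 3.22, 3.28, 2.97 and 3.37 counts in EtOH libraries, a range of 1.20-fold. The coefficient of variation over the 8 libraries was 29.6% on the first scale and 5.46% on the second. The piRNA cluster level itself varied 2.65-fold between libraries. Each row of the table belongs to a single class, and whether reads of these repeats lie in piRNA clusters cannot be told from it.

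Among 23 repeat families, L2 ranked 2 and MIR ranked 3 for the smallest range of this ratio, at 1.19-fold and 1.20-fold, after hAT-Charlie at 1.17-fold. CR1 ranked 8 at 1.32-fold. Ahead of CR1 were hAT (1.22-fold), hAT-Blackjack (1.24-fold), the retrovirus family ERVL (1.26-fold) and RTE-X (1.31-fold). ERVK ranked 9 at 1.35-fold, so a small range was not particular to L2, CR1 and MIR. L1 ranked 16 at 2.16-fold, and Alu had 2.11-fold. The L2, CR1 and MIR rows under 100 counts did not share this even ratio. They had 0.260 to 0.795 counts per 100 piRNA cluster counts, a range of 3.06-fold with a coefficient of variation of 30.3%.

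**Figure D4:**
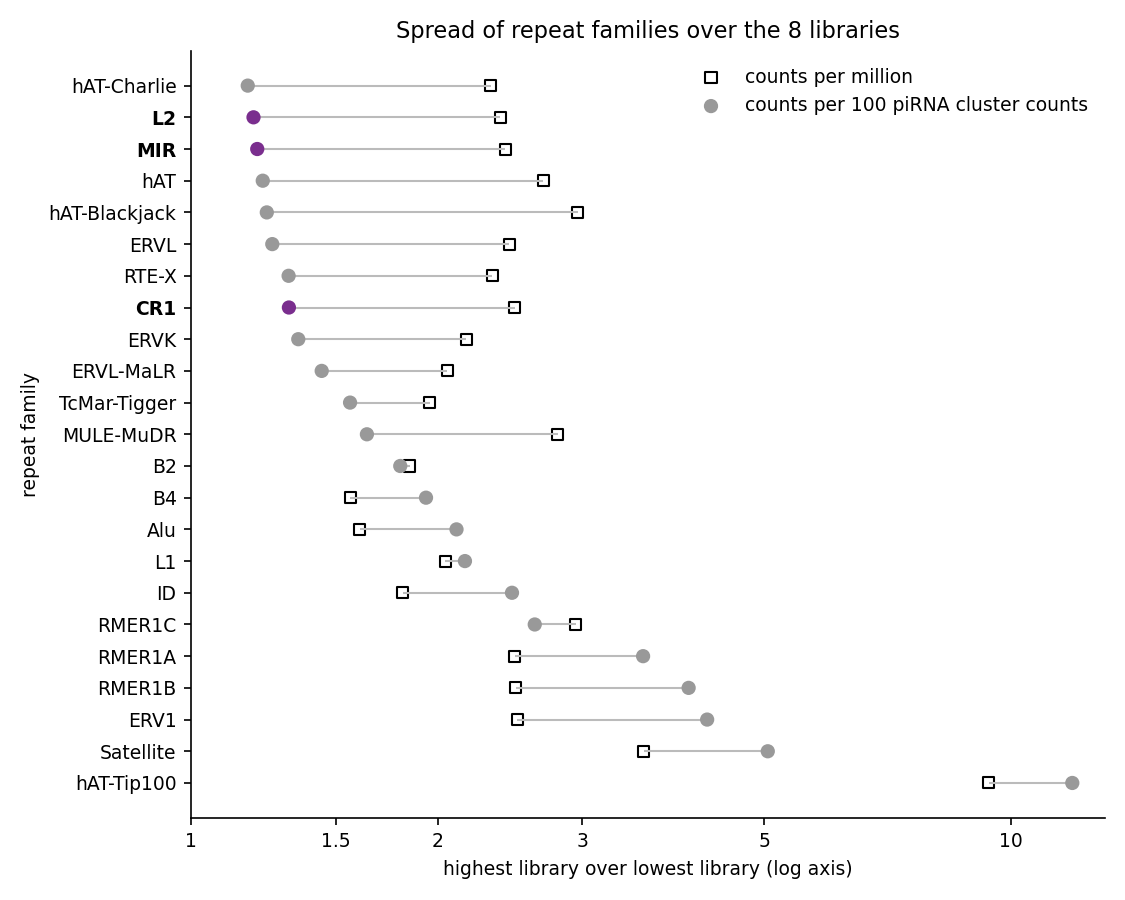
Highest over lowest library, for each of 23 repeat families, of CPM of the library total and of counts per 100 piRNA cluster counts. L2 and MIR lie at 1.19-fold and 1.20-fold on the second scale, hAT-Charlie at 1.17-fold, ERVL at 1.26-fold and L1 at 2.16-fold.

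On this scale CR1 antisense was the sole family and strand sum of 38 (2.63%) whose groups did not overlap. It had 0.107 to 0.122 counts per 100 piRNA cluster counts in controls and 0.0958 to 0.105 in EtOH libraries, with means of 0.115 ± 0.00618 and 0.0998 ± 0.00437 (SD, n = 4 each). The two-sided exact permutation p was 0.02857, the smallest that 4 against 4 allow, and adjusted over the 38 sums it was 0.571, so it did not pass the correction. It was named after its values were seen.

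The strand balance was steady between the groups. The antisense share of L2 counts was 49.7%, 50.3%, 52.2% and 52.3% in controls and 51.9%, 51.0%, 50.9% and 52.9% in EtOH libraries, with means of 51.1% ± 1.34 and 51.7% ± 0.968 (SD, n = 4 each). For MIR the means were 59.0% ± 0.501 and 58.5% ± 1.23, and for CR1 81.8% ± 1.21 and 81.7% ± 2.77. The groups overlapped in all 3 families (two-sided exact permutation p = 0.543, 0.457 and 1, and adjusted over 23 families 0.773, 0.701 and 1).

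The antisense share changed once the rows of 100 or more counts were left out. Rows and not whole copies were left out, so a copy's row in the other strand class stayed in the rest. Leaving out a large row of 1 strand class moves the share toward the other class by construction. The changes were not tested as a trait of the other copies. Without the rows of 100 or more counts the antisense share of CR1 was 48.5% ± 4.66 in controls and 45.7% ± 3.66 in EtOH libraries. That of MIR was 44.6% ± 1.79 and 46.0% ± 1.18 (SD, n = 4 each). For L2 it was 52.6% ± 1.77 and 56.7% ± 2.14 (two-sided exact permutation p = 0.0571, adjusted p = 0.575). By subfamily, pooled over libraries, the antisense share of MIRc was 82.8% over all rows and 43.2% over rows under 100 counts. That of L2a was 28.5% and 56.0%, and that of the L2 subfamily was 75.7% and 53.1%. L2c and MIRb went from 54.5% to 50.8% and from 46.5% to 47.2%. In other subfamilies a leaning appeared only without the rows of 100 or more counts. MIR3 was at 52.0% and 43.4%, L2b at 50.7% and 56.9%, and the MIR subfamily at 48.8% and 44.7%. CR1_Mam had 99.2% antisense over all rows. Only 87 counts were left without its rows of 100 or more counts, 23 of them in the sense row of CR1_Mam_copy94.

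**Figure D5:**
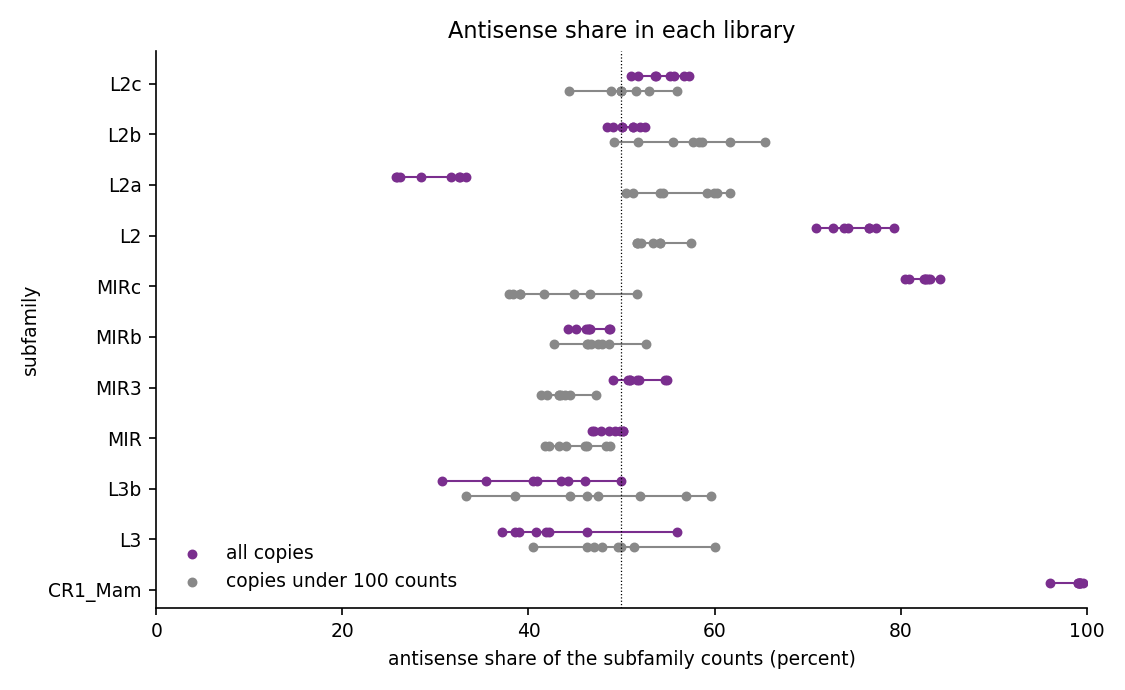
Antisense share of counts, in percent, by subfamily, over all copies and over copies under 100 counts, 1 point per library with a line over their range and a dotted line at equal shares; the under-100 set of CR1_Mam, with 87 counts, is not drawn. Pooled over libraries, MIRc at 82.8% and L2a at 28.5% move to 43.2% and 56.0% once the rows of 100 or more counts are left out. Rows of the same copies in the other strand class stay in.

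The microRNAs of L2 origin were sparse in these libraries except for miR-151-5p. It had 545, 321, 382 and 308 counts in controls and 124, 61, 160 and 293 in EtOH libraries. Every EtOH library was below every control in CPM, while the groups did not overlap in 15.1% of the 10234 features in the fit of single features. The means were 95.5 ± 25.5 against 26.6 ± 16.3 CPM (SD, n = 4 each, log2 fold change -1.84, SE 0.46), but the edgeR adjusted p of 0.0525 did not pass. All microRNAs together were also lower in every EtOH library, at 16.8% to 27.7% of the counts in control libraries and 6.96% to 10.1% in EtOH libraries, and their part in the miR-151-5p difference was not tested. miR-28a-5p had 17, 55, 13 and 7 counts in controls and 8, 5, 7 and 12 in EtOH libraries, and miR-708-5p had 0, 0, 9 and 1 and then 7, 3, 0 and 0. Both were below the filter on low counts and were not tested.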

How the data were processed

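Small RNA of 8 mouse sperm libraries was analysed, 4 per group. Whole-number counts for each feature were deposited, with no normalization by the authors. Per the labels only read 1 was used, and the submitters' processing notes name cutadapt, without a version. The sources used here do not give the aligner, genome build, repeat annotation or treatment of reads with several matches.

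Repeat rows were selected by family and summed by subfamily and by family within each strand class. Single copies, subfamily sums and family sums were each tested within the whole table. Low features were removed with filterByExpr (count 10, total 15). TMM factors and the quasi-likelihood F test came from edgeR 4.0.16 in R 4.3.3, and p-values were adjusted by Benjamini-Hochberg over every feature tested. Antisense shares and ratios were compared by a two-sided exact permutation test (70 arrangements, scipy 1.17.1). Alternatives used limma 3.58.1 (voom with quality weights), DESeq2 1.42.0, other scalings and filters, each library left out and EtOH libraries of either identifier form alone. Scaling to piRNA cluster counts was added after the data were seen. The steps were tested on simulated data.

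Named subfamilies are the 4 L2, 4 MIR and 1 CR1 with the most counts in each strand class. Named copies are those past the threshold, the 4 largest of L2 and MIR in each strand class, the 2 largest of CR1 and the 4 with the lowest p in each direction, among copies of 100 or more counts. Of these, 1 large MIR copy is not reported here. The members and lists were chosen with earlier results of these data known. Intervals cover counting error only, since they use counts pooled within each group and leave out variation between libraries. No molecular tags are named. Replicates were numbered by accession, which pairs no samples.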

Additional observations from a re-analysis of the deposited data

Results flagged for a closer look

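In 3 of the 106 groups of 4 libraries looked at, 1 library lay far from the other 3, where chance alone marks about 1 group in 20. CR1_Mam_copy94 antisense was at 125 CPM in control replicate 2 and at 193 to 206 CPM in the other controls. MIR3_copy7149 sense was at 4.80 CPM in control replicate 3 and at 2.20 to 2.43 in the other controls. MIRb_copy13605 sense was at 4.04 CPM in control replicate 3 and at 2.13 to 2.21 in the other controls.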

How the results depend on the processing

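The count of single copies called was 1 in the main analysis, 0 with median-of-ratios factors, with a mean count of at least 10 and with scaling to piRNA clusters, 2 with DESeq2 and with voom, and 4 with EtOH identifiers starting M alone. Leaving out 1 library gave 0 to 4 copies, with 0 when any of control replicates 1 to 3, or EtOH replicate 4, was left out and 4 without EtOH replicate 3. Calls over all features moved as well, at 8, 10 and 8 without control replicates 1, 2 and 3 and 3 without EtOH replicate 4. They were 20, 346 and 601 without control replicate 4, EtOH replicate 1 and EtOH replicate 2. Without EtOH replicate 3 they were 2332 of 11584 features, and with M alone 2572 of 13606. The cause was not tested. The 4 without EtOH replicate 3 were L2b_copy13425, MIRb_copy7718 and the antisense rows of MIRb_copy32772 and MIRb_copy39278. DESeq2 called 1 old repeat subfamily sum, L3 antisense, among 1920 of 9822 features called in that fit. The main analysis called 0 of these sums, with 974 of 9822 features called.

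No family sum was called under any alternative, but several log2 fold changes changed sign. L2 antisense was at 0.0499 with library size alone, 0.0252 with voom, 0.0905 with no filter, 0.00117 with scaling to piRNA clusters and 0.10 with EtOH identifiers starting EM alone. L2 sense was at 0.0266 with library size alone, 0.0744 with no filter and 0.0774 with EM alone, MIR antisense at 0.0395 with no filter and 0.0757 with EM alone, and MIR sense at 0.00833 with library size alone, 0.0471 with no filter and 0.0447 with EM alone. Leaving out 1 library gave -0.50 to 0.0861 for L2 antisense, -0.55 to 0.0614 for L2 sense, -0.59 to 0.0334 for MIR antisense, -0.54 to 0.0352 for MIR sense, -0.73 to -0.08 for CR1 antisense and -0.63 to -0.22 for CR1 sense. Among copies, MIRb_copy33658 was at -0.25 and MIR3_copy7149 at -0.10 with M alone. Without 1 library MIRb_copy33658 ran from -0.15 to 0.60 and MIRb_copy13605 from -0.24 to 0.75. The antisense share difference of MIR, EtOH minus control, was 1.31 percentage points without rows of 100 or more counts, 0.884 over rows with a count and 0.464 with EM alone. That of CR1 was 0.952 with EM alone and -1.28 to 0.785 without 1 library.

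The number of features called in the whole table also moved, at 19 single features against 9 with median-of-ratios factors, 818 with library size alone, 846 with voom and 1747 with DESeq2. For 24120 of 24489 rows, with fewer than 10 counts in all, no difference was detectable at this depth. No paired analysis was possible because the labels give no replicate numbers that the groups share.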
